A study of Homo sapiens with 8 samples.

Results

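In SKBR3 breast cancer cells with FOXA1 knocked down, transcripts of the coactivators YAP1 and WWTR1 and of all 4 TEAD transcription factors were higher than in control cells, while those of 3 of their target genes, CCN1, CCN2 and AMOTL2, were lower. CCN1 kept 20.5% and CCN2 21.6% of the control level, and AMOTL2 kept 54.7%. TEAD2 rose the most, by 5.31-fold from a low level, and YAP1 the least, by 1.11-fold. The log2 fold changes of YAP1 (0.15), TEAD4 (0.18) and TEAD3 (0.45) lay within the interquartile range of all tested genes (-0.50 to 0.53). The 10 genes described here were taken by symbol from a table of 30434 genes and all 10 were present. ANKRD1, the other target gene, had at most 2 counts in any library.

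YAP, and TAZ (the product of WWTR1), are transcriptional coactivators without a DNA-binding domain of their own. They reach their target genes by binding TEAD proteins, which recognise a short DNA element. When the kinases of the Hippo pathway are active, they phosphorylate YAP and TAZ, which are then held in the cytoplasm or degraded, so that transcript levels do not report their activity. CCN1 and CCN2 encode secreted matricellular proteins, AMOTL2 a junctional scaffold that binds YAP, and ANKRD1 a nuclear and sarcomeric ankyrin repeat protein. All 4 are commonly read as targets of YAP and TAZ.

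RNA was sequenced from 4 control libraries and 4 knockdown libraries of SKBR3, a human breast cancer line with amplified ERBB2 (HER2). The control cells are given as wild type, and the labels name no control vector for them. Effects of the knockdown and other differences between the control cells and the stable line cannot be told apart in this design. The knockdown cells are a stable line made with lentiviruses carrying 3 short hairpin RNAs against FOXA1, a pioneer transcription factor of luminal cells; whether the line is a clone or a pool is not given. Both kinds of cells grew in DMEM with serum. Nothing says that replicates came from separate cultures, so p-values measure only the spread between these libraries, which may be technical.

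The control libraries held between 21838121 and 23786684 counts and the knockdown libraries between 19087878 and 23503753. FOXA1 had 191.7 ± 1.65 CPM in control and 3.96 ± 0.340 in knockdown (mean ± SD, n = 4), where CPM is counts per 1000000 after scaling of the libraries, and its log2 fold change was -5.60. Of the 8 markers of HER2-amplified luminal epithelium, ERBB2, GRB7, KRT7 and KRT19 were lower in knockdown and KRT8 and KRT18 higher. In that order their log2 fold changes were -2.45, -1.54, -1.79, -1.87, 0.31 and 0.58, and ERBB2 kept 18.3% of its control level. EPCAM and CLDN4 were also called higher, at 0.33 and 0.08 on the log2 scale. The groups overlapped for CLDN4, whose call was lost on leaving out a library. With the median of the 50 nearest tested genes taken out, EPCAM was at 0.04 and lost its call. The same correction put CLDN4 at 0.51, KRT8 at 1.17 and KRT18 at 1.62. It put ERBB2, GRB7, KRT7 and KRT19 between -1.93 and -1.03. All 8 were detected in every library. Control replicate 3 was unlike the rest of its group: the chi-square per degree of freedom of its pairs was between 4.94 and 6.36, against 2.18 to 2.41 for the other control pairs. Of 8 fibroblast markers, COL1A2, DCN and PDGFRA had 3 or fewer counts in every library and LUM had no row in the table. The summed level of that list was at most 7.55 CPM in control and between 11.3 and 12.8 in knockdown, with COL3A1 and PDGFRB higher and COL1A1 lower. The leukocyte marker PTPRC had at most 3 counts. The part of these markers in the results was not tested.

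The comparison of knockdown with control called 77.1% of the 16430 tested genes at an adjusted p under 0.05 in edgeR's quasi-likelihood test, 39.4% higher and 37.7% lower. All 9 tested members were called, 6 higher and 3 lower, and none overlapped between the groups, where 72.0% of all tested genes did not overlap. A call by itself therefore says little about these genes. Changes of 2-fold or more were seen in 3 of the 9, TEAD2 upwards and CCN1 and CCN2 downwards, against 28.3% of all tested genes (14.9% upwards and 13.4% downwards). For each of the 9, an exact two-sided permutation test over libraries returned p = 0.0286, below which a design of 4 against 4 cannot go. Fewer cells that express a gene and less RNA per cell cannot be told apart in bulk libraries.

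**Figure D1:**
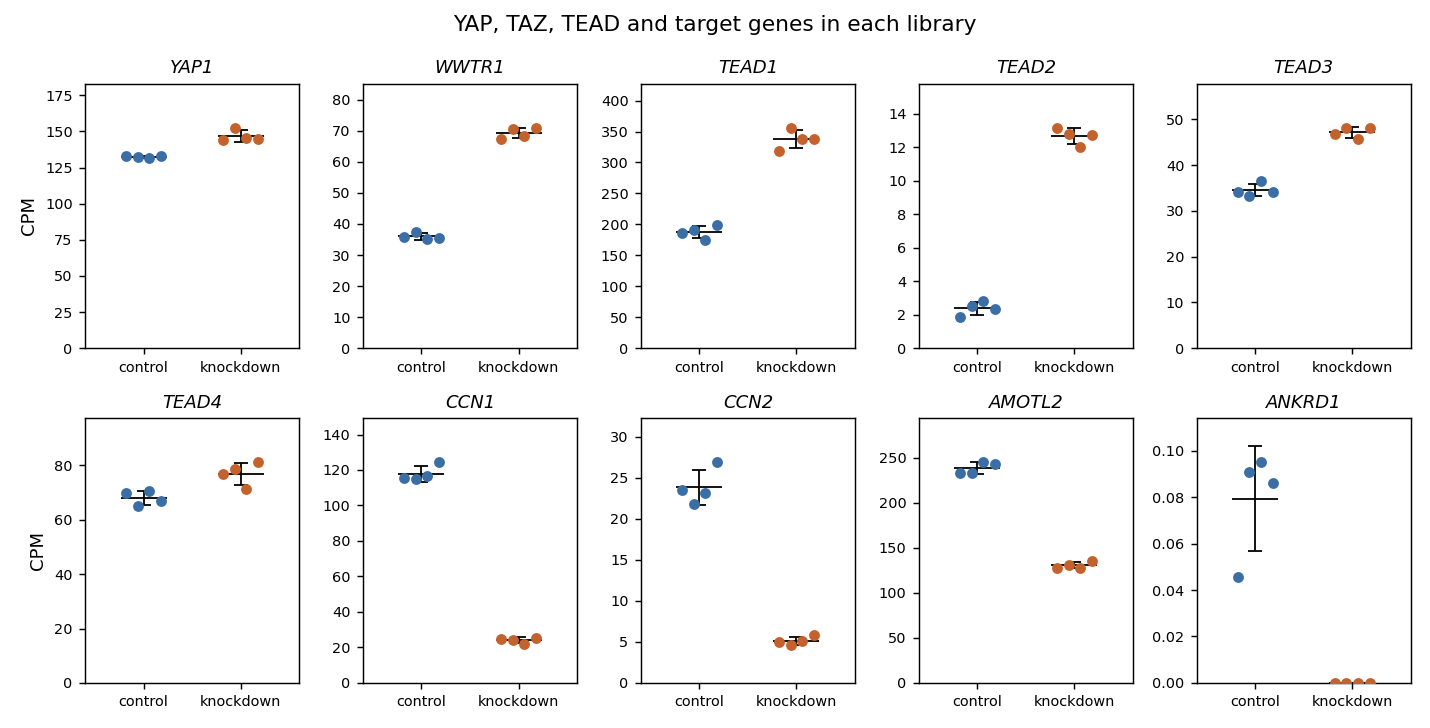
Level of each gene in each library, in CPM on linear axes that start at 0; points are the 4 libraries of a group and black bars the mean ± SD. YAP1 rose from 132.4 to 146.8 CPM on average, WWTR1 from 36.0 to 69.4, and CCN1 fell from 117.8 to 24.1. ANKRD1 is on a scale under 0.11 CPM, where its points stand for 0, 1 or 2 counts.

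YAP1 (ENSG00000137693.14, chromosome 11, 102110461 to 102233423, plus strand, GENCODE 29 on GRCh38) had 133, 132, 131 and 133 CPM in control replicates 1 to 4 and 144, 153, 146 and 145 CPM in knockdown replicates 1 to 4. Every knockdown library lay above every control library, and knockdown replicate 2 was the highest. The log2 fold change was 0.15 (SE 0.0193, adjusted p of 0.00037 by edgeR). It was the smallest change among the 9 in this fit. It became 0.23 when libraries were scaled by their totals only. The 50 tested genes nearest to YAP1 on the chromosome had a median log2 fold change of -0.22. With that regional median taken out, the log2 fold change of YAP1 was 0.37, above those of TEAD3 (0.24) and TEAD4 (0.14).

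WWTR1 (ENSG00000018408.15, chromosome 3, 149517235 to 149736714, minus strand), which encodes TAZ, had 35.8, 37.5, 35.0 and 35.6 CPM in the control libraries and 67.5, 70.5, 68.4 and 71.0 CPM in the knockdown libraries. The groups were far apart next to their spread, with a log2 fold change of 0.95 (SE 0.0269, adjusted p of 2.99e-16 by edgeR). It crossed the 2-fold line under 3 alternatives, at 1.03 with library totals only and with the regional median taken out, and at 1.01 with upper-quartile scaling. Exons of WWTR1 overlap 795 bp of WWTR1-AS1 on the opposite strand, which averaged 19.4 counts per library against 1170 for WWTR1.

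The share of YAP1 among the coactivator transcripts was lower in knockdown, given as a description without a test. Per kilobase of annotated exon, YAP1 made up 83.1% ± 0.413 of the summed YAP1 and WWTR1 level in control and 73.9% ± 0.510 in knockdown (SD, n = 4 each). The summed level itself was 25.3 ± 0.175 CPM per kilobase in control and 31.6 ± 0.727 in knockdown. YAP1 thus remained the more abundant of the pair in both groups.

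The 4 TEAD genes encode paralogous proteins with a common DNA-binding domain and a YAP-binding domain, and reads from their shared stretches can be assigned to the wrong paralogue. TEAD1 (ENSG00000187079.19, chromosome 11, 12674591 to 12944483, plus strand) had 186, 191, 175 and 199 CPM in control and 319, 356, 339 and 337 CPM in knockdown. Its lowest knockdown library, replicate 1, was well above its highest control library, replicate 4. TEAD1 rose by 0.85 on the log2 scale (SE 0.0507, adjusted p of 1.17e-15 by edgeR).

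TEAD2 (ENSG00000074219.14, chromosome 19, 49340595 to 49362457, minus strand) was the least abundant TEAD gene, with 41, 56, 59 and 54 counts in control and 310, 312, 236 and 276 in knockdown. In CPM that was 2.39 ± 0.391 and 12.7 ± 0.484 (mean ± SD, n = 4), and the gene rose by 2.41 on the log2 scale (SE 0.125, adjusted p of 9.2e-17 by edgeR). The groups did not come near each other. An overlap of 319 bp with CD37 on the opposite strand, at 12.8 counts on average, touches this gene.

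TEAD3 (ENSG00000007866.21, chromosome 6, 35473597 to 35497076, minus strand) had 34.2, 33.3, 36.4 and 34.1 CPM in control and 46.7, 48.0, 45.7 and 48.2 CPM in knockdown, with control replicate 3 the highest control. It rose by 0.45 on the log2 scale (SE 0.0329, adjusted p of 2.83e-09 by edgeR), and 0.24 with the regional median of 0.21 taken out. TEAD4 (ENSG00000197905.9, chromosome 12, 2959330 to 3040673, plus strand) had 69.8, 65.2, 70.6 and 66.8 CPM in control and 76.7, 78.5, 71.2 and 81.1 CPM in knockdown. Here the groups were nearly in contact, since knockdown replicate 3 lay just above control replicate 3. Its log2 fold change was 0.18 (SE 0.0481, adjusted p of 0.000983 by edgeR).

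The makeup of the TEAD transcripts is given in the same way. Per kilobase of exon, TEAD4 was 49.6% ± 1.34 of the summed TEAD level in control and 39.1% ± 1.22 in knockdown (SD, n = 4 each). TEAD1 went from 30.3% ± 1.81 to 38.0% ± 1.37 and TEAD2 from 1.33% ± 0.219 to 4.93% ± 0.201. TEAD3 was 18.8% ± 0.564 and 17.9% ± 0.206. The summed TEAD level was 60.4 ± 0.856 CPM per kilobase in control and 86.4 ± 2.94 in knockdown. These shares are a description and depend on the exon length used: without length, TEAD1 had the largest share in both groups.

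CCN2 (CTGF, ENSG00000118523.6, chromosome 6, 131948176 to 131951373, minus strand) has a proximal promoter that holds several copies of GGAATG, the core of the element that TEAD proteins bind. The promoter is shown because it carries 3 copies, the most of any member searched. The sequence below is from RefSeq on GRCh38.p14 (chr6:131951374-131951622, minus strand), reads 5′ to 3′ towards the gene start, and has each GGAATG in capitals.
CCN2: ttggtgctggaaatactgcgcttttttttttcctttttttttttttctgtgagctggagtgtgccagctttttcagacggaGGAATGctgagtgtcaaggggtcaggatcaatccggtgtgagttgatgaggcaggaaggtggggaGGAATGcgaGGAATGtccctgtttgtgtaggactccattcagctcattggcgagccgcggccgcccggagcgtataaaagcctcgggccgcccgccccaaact

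The copies start 169, 104 and 95 bases before the gene start. Of 34943 RefSeq windows of the 250 bases before a gene start, 11.9% held GGAATG on either strand, 0.942% held at least 2 copies and 0.083% at least 3. Windows were found for 7 of the 10 genes and not for CCN1, TEAD1 and TEAD4. A copy was present in 4 of the 7: CCN2, ANKRD1, AMOTL2 and YAP1. AMOTL2, TEAD2 and WWTR1 each have 2 annotated starts, and for AMOTL2 the copy is before 1 of them. No copy was in the windows of TEAD2, TEAD3 and WWTR1, which says only that these letters are not there.

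The other copies are shown in 30 bases each, with the GGAATG or its reverse complement CATTCC in capitals, from RefSeq on GRCh38.p14. ANKRD1 has 2 (chr10:90921290-90921319 and chr10:90921198-90921227, minus strand), AMOTL2 1 (chr3:134374499-134374528, minus strand) and YAP1 1 (chr11:102110273-102110302, plus strand). By GENCODE 29, the AMOTL2 stretch and the second ANKRD1 stretch lie within exons of these genes themselves, since the RefSeq starts used here are further downstream. They are printed to set the fallen targets CCN2 and AMOTL2 beside YAP1, which rose, and ANKRD1, which was hardly detected.
ANKRD1, 220 bases before the start: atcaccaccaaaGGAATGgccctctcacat
ANKRD1, 128 bases before the start: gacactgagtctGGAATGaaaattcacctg
AMOTL2, 69 bases before the start: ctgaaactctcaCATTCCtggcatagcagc
YAP1, 162 bases before the start: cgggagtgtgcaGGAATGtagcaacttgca

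The same windows were searched on both strands for TGTTTAC, a core that forkhead proteins such as FOXA1 bind. It was in 1 of the 10 windows of these genes, 53 bases before 1 of the starts of WWTR1 (chr3:149703309-149703338, minus strand), against 2.98% of all windows. The reverse complement is in capitals, and 20 of the 30 bases are in an exon of WWTR1 by GENCODE 29.
WWTR1, 53 bases before the start: gtcattatagatGTAAACAacatgtgtgct

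CCN2 had 23.5, 21.8, 23.2 and 26.8 CPM in control and 4.97, 4.67, 5.14 and 5.78 CPM in knockdown. Replicate 4 was the highest of each group, and the groups did not overlap. The log2 fold change was -2.22 (SE 0.0905, adjusted p of 4.24e-18 by edgeR), so the mean was 4.63-fold higher in control.

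CCN1 (CYR61, ENSG00000142871.18, chromosome 1, 85580761 to 85583962, plus strand) encodes the closest relative of CCN2 among these genes. It had 115, 115, 116 and 124 CPM in control and 24.7, 24.4, 21.9 and 25.4 CPM in knockdown. As for CCN2, control replicate 4 was the highest. CCN1 had a log2 fold change of -2.29 (SE 0.053, adjusted p of 1.9e-23 by edgeR), near that of CCN2.

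AMOTL2 (ENSG00000114019.14, chromosome 3, 134355874 to 134375479, minus strand) had 233, 233, 245 and 243 CPM in control and 128, 131, 128 and 135 CPM in knockdown. Every knockdown library was below every control library by more than the spread within either group. AMOTL2 had a log2 fold change of -0.87 (SE 0.0268, adjusted p of 1.4e-17 by edgeR), and -1.12 with the regional median of 0.25 taken out.

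ANKRD1 (ENSG00000148677.7, chromosome 10, 90912096 to 90921276, minus strand) had 1, 2, 2 and 2 counts in the control libraries, and all 4 knockdown libraries had 0. It did not pass the filter on low counts and was not tested with the others. With 3 counts as the limit that a zero allows, a knockdown library could hold 0.153 CPM unseen, more than any control value. Fitted without the filter, over 30434 genes, ANKRD1 was called lower (adjusted p of 0.017 by edgeR), on the few control counts above; no fold is given.

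Levels were set against each other per kilobase of exon. In control the order was CCN1 at 48.0 ± 1.77 CPM per kilobase, AMOTL2 at 39.8 ± 1.08, TEAD4 at 29.98 ± 1.11, YAP1 at 21.0 ± 0.127, TEAD1 at 18.3 ± 0.980, TEAD3 at 11.3 ± 0.439, CCN2 at 10.2 ± 0.917, WWTR1 at 4.28 ± 0.123, TEAD2 at 0.801 ± 0.131 and ANKRD1 at 0.0401 ± 0.0115 (SD, n = 4). TEAD3 and CCN2 overlapped there. In knockdown TEAD4 at 33.8 ± 1.85 and TEAD1 at 32.9 ± 1.48 led and overlapped each other, followed by YAP1 at 23.3 ± 0.616, AMOTL2 at 21.8 ± 0.557, TEAD3 at 15.5 ± 0.385, CCN1 at 9.82 ± 0.613, WWTR1 at 8.25 ± 0.199, TEAD2 at 4.26 ± 0.162 and CCN2 at 2.20 ± 0.201. No other neighbours in either order overlapped. CCN1 went from place 1 to place 6, and CCN2 from above WWTR1 and TEAD2 to below both. This order depends on the exon length used. In CPM without length, CCN2 was already below WWTR1 in control, at 23.8 against 36.0. Control CCN1, at 117.8 CPM, was then below AMOTL2 (238.4), TEAD1 (187.8) and YAP1 (132.4).

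**Figure D2:**
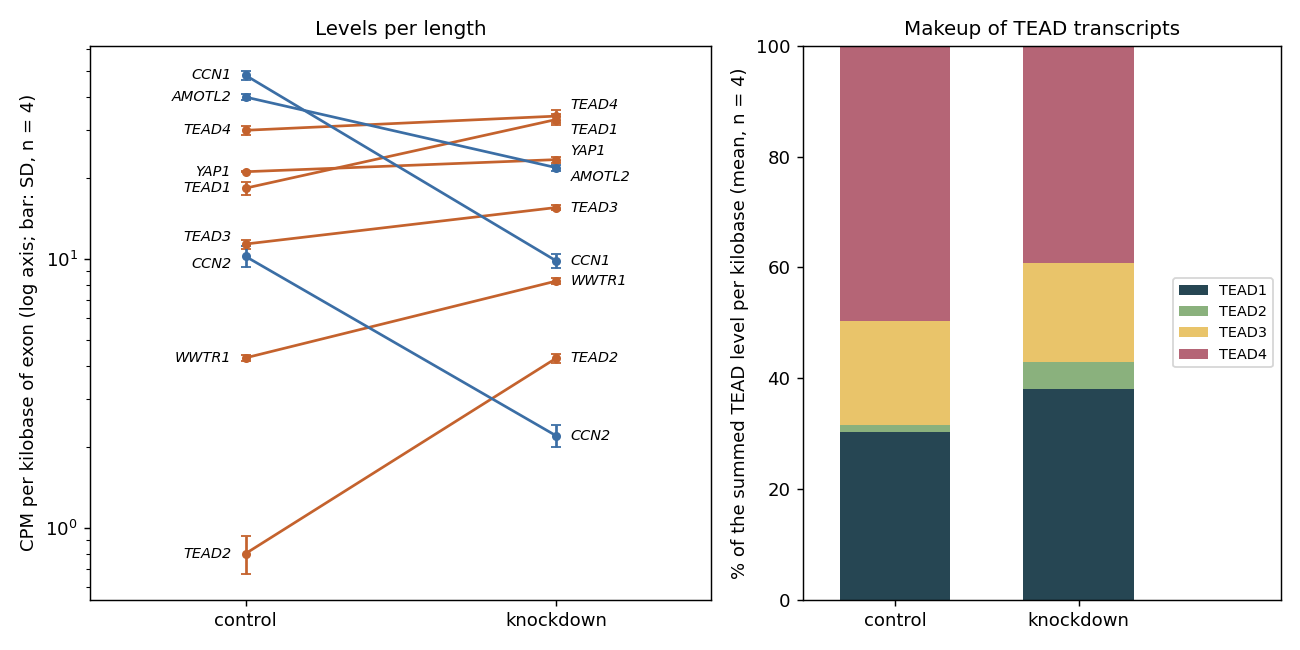
Left, mean level of 9 genes in CPM per kilobase of exon on a log axis, with SD over 4 libraries; orange lines rise and blue lines fall. Right, mean share of each TEAD gene in the summed TEAD level per kilobase. The line of CCN1 crosses those of AMOTL2, YAP1, TEAD1, TEAD3 and TEAD4, and the line of CCN2 those of WWTR1 and TEAD2, and TEAD1 and TEAD2 take larger shares in knockdown.

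The wider pathway was read from lists of its genes, beside a median log2 fold change of 0.019 over all tested genes. Of all tested genes, 77.1% were called, 39.4% higher and 37.7% lower, the shares to set beside each list. In the list of Hippo kinases and kinase adaptors, 8 of 17 tested genes were higher and 3 lower, 64.7% called, with a median of 0.037. Among the core kinases, LATS1, which phosphorylates YAP, rose by 0.52 on the log2 scale (SE 0.0526). Its paralogue LATS2 and the upstream kinases STK3 and STK4 did not pass the threshold, with log2 fold changes of -0.091, -0.090 and -0.085. With the regional median taken out, LATS2 at 0.33 and STK3 at 0.24 turned direction and were called higher (adjusted p of 5.01e-06 and 0.000272 by edgeR), and 10 of the 17 were higher. These 4 are given for their role, outside the rule for named genes and after their values were seen. Without control replicate 3, 6 of the 17 were called lower instead of 3, with STK3, STK4 and MAP4K3 added.

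MAP4K4, a kinase that can phosphorylate LATS proteins, had 2, 0, 0 and 0 counts in control and 2904, 3069, 2320 and 2669 in knockdown. Against a floor of 3 counts in a control library it was at least 861-fold higher. MOB1B, an adaptor that activates LATS kinases, rose by 1.49 on the log2 scale (SE 0.0761), to 23.1 CPM; it shares 199 bp of exon with DCK on the same strand, so its counts are uncertain. The 3 lower genes were TNIK, with a log2 fold change of -2.24 (SE 0.185), TAOK1, which phosphorylates upstream Hippo kinases, at -0.55 (SE 0.0504), and MAP4K2, outside the rule, at -0.40. With the regional median taken out MAP4K2 was at 0.02, with its direction turned and its call lost.

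Of 8 scaffold genes whose products restrain YAP, 2 were higher and 5 lower, with a median of -0.40. AMOT, which encodes the angiomotin related to AMOTL2, had 5, 3, 2 and 0 counts in control and 2960, 3292, 2590 and 2834 in knockdown (log2 fold change 10.10, SE 0.774, resting on these few control counts). Its paralogue AMOTL1, outside the rule, went the other way at -0.67 (SE 0.0413), as AMOTL2 did. The remaining falls were in FRMD6 at -2.08 (SE 0.122), WWC2 at -1.46 (SE 0.0343) and, outside the rule, NF2 (Merlin) at -0.63 and WWC1 (KIBRA) at -0.17. With the regional median taken out these last 2 were at -0.38 and -0.73. WWC3 rose by 0.71 (SE 0.0323), which was 0.018 and no longer past the threshold with the regional median taken out (adjusted p of 0.709 by edgeR).

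In the FAT and DCHS protocadherins, cell surface proteins upstream of the pathway, 3 of 6 listed genes were tested and all 3 were called. Over all tested genes the share called was 77.1%. FAT1 had 465.5 ± 23.7 CPM in control and 69.3 ± 4.90 in knockdown (mean ± SD, n = 4), a log2 fold change of -2.75. FAT2 rose by 2.60 (SE 0.0831), to 21.3 CPM, and DCHS1 by 4.41 (SE 0.272), to 6.62 CPM. In the list of LATS inhibitors and STRIPAK subunits, which act against the Hippo kinases, 2 of 10 were higher and 5 lower, with a median of -0.14. The falls were in SLMAP at -0.76 (SE 0.0458), the LIM protein gene AJUBA at -0.68 (SE 0.0598) and, outside the rule, STRN, STRN3 and LIMD1 between -0.38 and -0.21. LIMD1 shares 1029 bp of exon with LIMD1-AS1 on the opposite strand, which averaged 659 counts against 1240, so its counts are uncertain. SIKE1 rose by 0.20, a call lost with the regional median taken out (0.10, adjusted p of 0.0672 by edgeR), and WTIP, outside the rule, by 1.27 from a mean of 0.721 CPM. With the regional median taken out, STRN3 was at -0.02 and WTIP at 0.64.

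The VGLL proteins bind TEAD at a surface that YAP and TAZ also use. All 3 tested genes of this list were higher, against 39.4% of all tested genes, and VGLL2 had no row in the table. VGLL3 had 12, 13, 14 and 21 counts in control and 2487, 2842, 2147 and 2418 in knockdown, a log2 fold change of 7.34 (SE 0.156, adjusted p of 1.24e-28 by edgeR). VGLL1 had 113.5 ± 3.02 CPM in control and 167.9 ± 6.14 in knockdown (mean ± SD, n = 4). Its rise was 0.56 on the log2 scale, and 0.25 with the regional median taken out. VGLL4, a repressor of TEAD output that is outside the rule, had a log2 fold change of 0.29 (0.47 with the regional median taken out). Its exons overlap those of ATG7 on the other strand, which leaves its counts uncertain.

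Further genes often listed as YAP and TAZ targets were found on both sides. Of 16 tested, 8 were higher and 6 lower, 87.5% called against 77.1% of all tested genes, with a median of 0.20. The largest falls were in TGFB2, a TGF-beta ligand gene, at -5.79 (SE 0.312), from between 225 and 338 counts in control to between 3 and 7 in knockdown, and in F3, tissue factor, at -2.02 (SE 0.0684). The largest rises under the rule were in NUAK2, a kinase gene, at 1.59 (SE 0.0929) and CRIM1, a transmembrane antagonist of BMP signalling, at 1.25 (SE 0.0442). RBMS3, outside the rule with a mean of 49.9 counts, rose more, by 2.74 (SE 0.297). LATS2 and PTPN14, which this list shares with the lists above, were not past the threshold in this fit. With the regional median taken out, the counts stayed at 8 and 6 though the genes changed. LATS2 was then called higher (0.33), and NT5E, outside the rule, went from 0.24 to 0.034 and lost its call. AXL had at most 7 counts in any library.

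**Figure D3:**
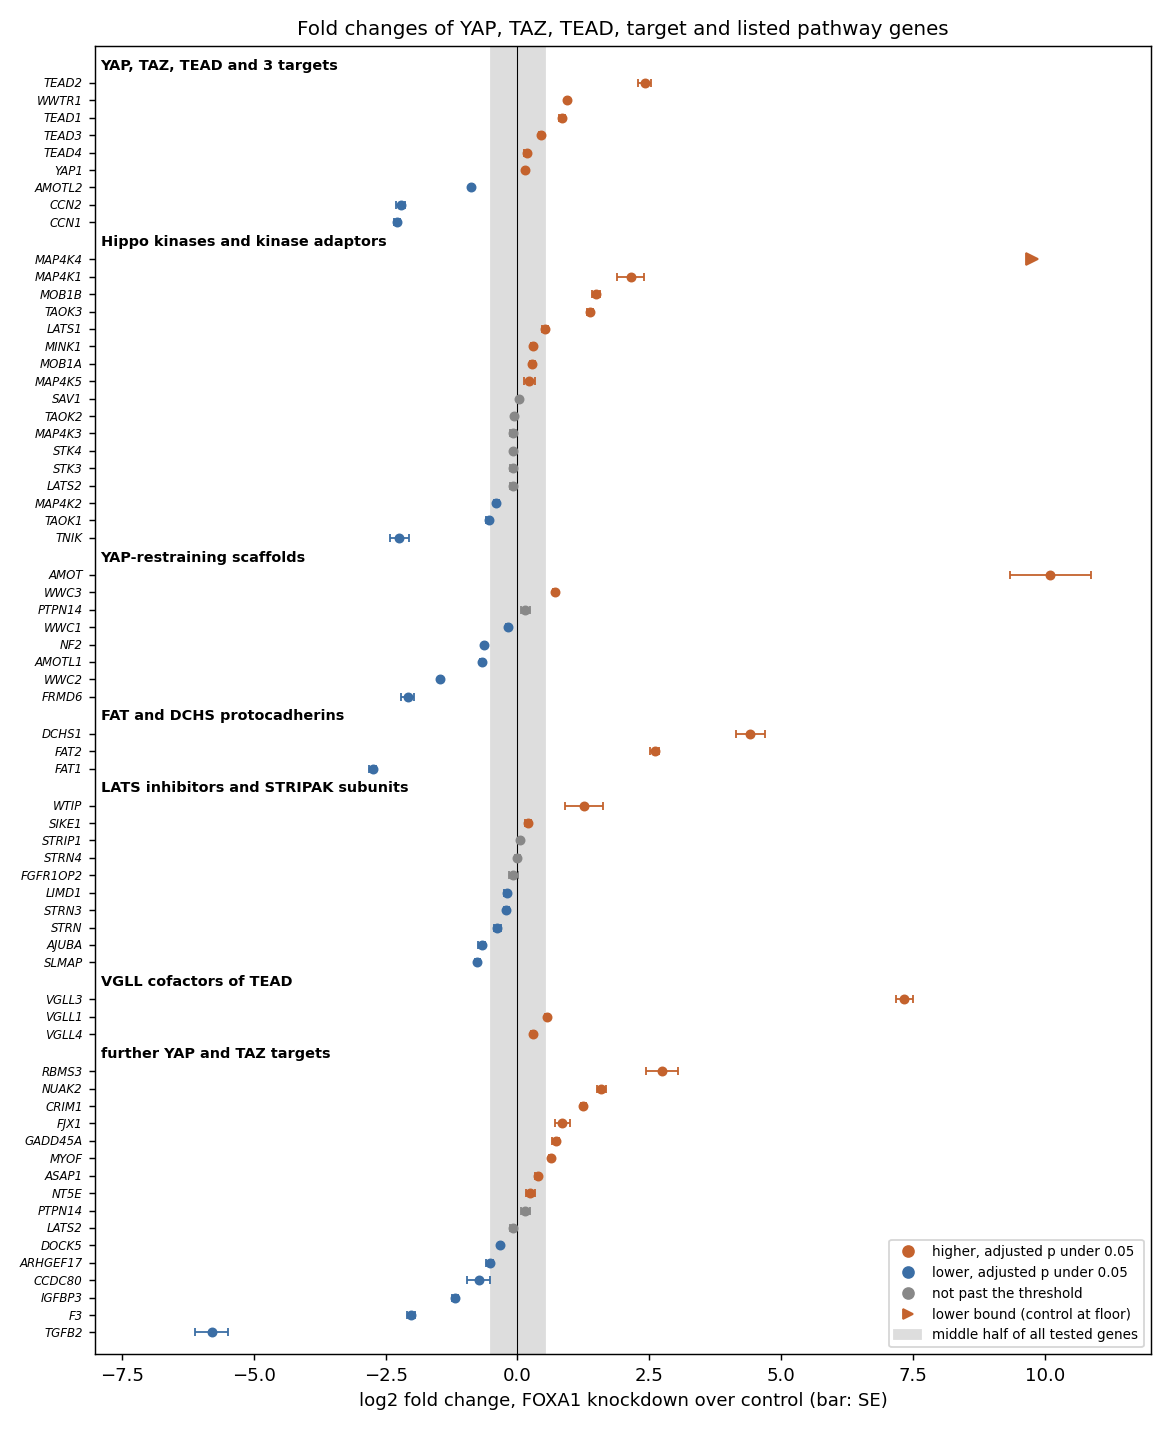
Log2 fold change of knockdown over control for the 9 tested members and the listed pathway genes, with SE; colours give the call at an adjusted p under 0.05, and the grey band spans the interquartile range of all tested genes (-0.50 to 0.53). MAP4K4, drawn as a lower bound without SE, AMOT and VGLL3 lie far to the right. CCN1, CCN2, F3 and TGFB2 are among the genes to the left of the band, as are FAT1, TNIK, FRMD6 and WWC2. The listed targets RBMS3, NUAK2 and CRIM1 are among those to its right.

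Genes with the most similar pattern were found as the Euclidean distance over the 8 libraries between log2 CPM values, each centred on the gene's own mean, for the 12035 named genes averaging 50 or more counts. Nearest to YAP1 were NR1D1, BTBD7 and JADE1, at 0.0576 to 0.0597. Nearest to WWTR1 were ANKRD40 at 0.0405, MYLIP at 0.0651 and RBFOX2 at 0.0763. Nearest to CCN2 were SYT8 at 0.169, ID3 at 0.236 and PRRT3 at 0.254. The 8 libraries fall into 2 groups, which limits what such a distance can tell apart.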

How the data were processed

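Per the labels' protocols, Trizol RNA gave Illumina mRNA libraries read as pairs of 101 bp. The authors deposited read counts per gene as whole numbers. Salmon 1.9 and hg38 are named in the submitters' processing notes, so the counts may be rounded estimates; annotation and use of strand are not given in the sources used here. Positions, exon lengths (union of exons) and overlaps come from GENCODE 29 on GRCh38, which held 96.5% of the identifiers.

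Groups came from sample titles and columns were matched by name. Genes were kept by filterByExpr (minimum 10 counts, total 15), leaving 16430, scaled by TMM and tested with edgeR 4.0.16 in R 4.3.3 (robust quasi-likelihood, Benjamini-Hochberg over all genes tested, threshold 0.05). A prior count of 0.125 enters the fitted fold changes; standard errors come from log2 CPM with 0.5 added to counts. The script was tested on simulated data, where it recovered 70 of 100 changes of 1.5-fold and 89 of 100 of 2-fold. Of the calls made there, 5.92% were false. Few genes were changed in that simulation, unlike in these data. Alternatives were other scalings, filters, DESeq2 1.42.0, limma 3.58.1 voom, non-robust estimation, an adjusted p under 0.01, a replicate block, a regional offset (median of the 50 nearest tested genes) and leaving out each library.

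Members and lists were chosen with earlier results of these data known. Named genes were FOXA1, all members, the 2 largest rises and 2 largest falls of each list among called genes averaging 50 or more counts, and the 3 genes nearest to YAP1, WWTR1 and CCN2; others were named after their values were seen. Floors of 3 counts cover counting error only.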

Additional observations from a re-analysis of the deposited data

Results flagged for a closer look

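Over 61 groups of 4 values, from the members, FOXA1 and the named pathway genes, the highest or lowest value is listed here where it lay further from its neighbour than 0.829 of the range of the group. There were 6, where chance gives about 3.05 if values are normally distributed. That number does not cover groups with few counts. For MAP4K4 in control, where replicate 1 alone had counts, the ratio is 1 by construction. DCHS1 in control rests on 11, 5, 5 and 6 counts. YAP1 was high in knockdown replicate 2, at 152.6 CPM against 144 to 146 in the others. CCN1 was high in control replicate 4, at 124.2 CPM against 115 to 116. Leaving out each library in turn kept the log2 fold change of YAP1 between 0.13 and 0.16 and that of CCN1 between -2.31 and -2.24.

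SLMAP was low in control replicate 3, at 77.88 CPM against 84.5 to 85.0, and VGLL1 was high in knockdown replicate 4, at 177.1 CPM against 164 to 165. DCHS1 was high in control replicate 1, at 0.5037 CPM against 0.227 to 0.259, and MAP4K4 there had 2 counts, or 0.09159 CPM, against 0 in the other controls. No cause was tested for any of them.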

How the results depend on the processing

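All 9 tested members kept their direction and their call under every alternative run, with adjusted p at most 0.00728 (TEAD4 without control replicate 2, edgeR). The regional offset moved YAP1 and TEAD3 by more than 1.5 times, as given above, and library totals only moved YAP1 to 0.23. Scaling moved the median of all tested genes by at most 0.084 on the log2 scale. Without exon length, the shares of TEAD1 were 64.1% in control and 71.2% in knockdown, of TEAD2 0.817% and 2.68%, of TEAD3 11.8% and 9.94%, of TEAD4 23.3% and 16.2%, and of YAP1 78.6% and 67.9%. Of the counts over lists, the scaffolds called higher went from 2 to 1 with the regional offset. They were 3 with DESeq2, limma voom, non-robust estimation, a replicate block, upper-quartile scaling and library totals only. The count was also 3 under both other filters and without knockdown replicate 1. The LATS inhibitors and STRIPAK subunits called higher went from 2 to 1 when only genes averaging 50 or more counts were kept, where WTIP was not tested. The kinases called higher went from 8 to 10 with the regional offset. Those called lower ranged from 3 to 6 when each library was left out, with 6 reached without control replicate 3. With the replicate number as a block, 6362 genes were called higher and 6091 lower, against 6475 and 6200; every member kept its call. Same-numbered libraries did not deviate together in every pair (correlations 0.086, 0.169, -0.033 and 0.067 for numbers 1 to 4). Libraries with different numbers had correlations between -0.12 and 0.075. The numbers were not taken as pairs because the labels do not say what a replicate number marks. Without the filter on low counts, 4 members instead of 3 were called lower, the added one being ANKRD1 (adjusted p of 0.017 by edgeR), whose level lies under the limit that depth sets.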

Other observations

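Relatives of the target genes were looked at after the values above had been seen. CCN5, a further gene of the CCN family, had between 18 and 26 counts in control and 0, 2, 0 and 0 in knockdown, at least 6.61-fold lower against a floor of 3 counts in a knockdown library. CCN3, CCN4 and CCN6 did not pass the filter on low counts. ANKRD2, which like ANKRD1 belongs to the muscle ankyrin repeat family, was well above the filter and had 6.62 ± 0.626 CPM in control and 0.792 ± 0.144 in knockdown (mean ± SD, n = 4), a log2 fold change of -3.07 (SE 0.144, adjusted p of 1.39e-15 by edgeR). ANKRD23, also of that family, had 5.33 ± 0.287 CPM in control and 4.13 ± 0.414 in knockdown, with a fold change of -0.37 on the log2 scale (adjusted p of 0.00431 by edgeR).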
